A study of Rattus norvegicus with 31 samples.

Results

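Mitochondrial DNA encodes 1 subunit of respiratory complex III (Mt-cyb), 3 subunits of complex IV (Mt-co1, Mt-co2 and Mt-co3) and 2 subunits of complex V, the ATP synthase (Mt-atp6 and Mt-atp8). These 6 transcripts were taken by gene symbol from the 11289 genes of the deposited tables, all 6 were listed, and all 6 were among the 10082 genes tested after a filter on low counts. They were followed in the gastrocnemius, a calf muscle in which fast fibres prevail, of 31 female Sprague Dawley rats that were 7 months old and fed chow. The groups were controls at room temperature (n = 8), Ucp1 knockouts at room temperature (n = 7), controls held at 4 °C for 14 days (n = 8) and Ucp1 knockouts held at 4 °C for 14 days (n = 8). Ucp1 is the uncoupling protein through which brown fat mitochondria release energy as heat. The labels name the knocked-out gene without describing the allele. The Ucp1 transcript was not analysed here, and each library's genotype is the one its label gives. Each rat gave 1 library, made from total RNA with a QuantSeq kit, which sequences a short stretch of each polyadenylated RNA close to its 3' end, and p-values measure the spread between rats. A level therefore does not grow with transcript length, but it depends on where polyadenylated ends and primed sites lie. Levels are given as CPM, the counts of a gene brought to a common library size, after TMM scaling, which corrects library totals for differences in composition.

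Mitochondrial DNA is transcribed as long precursors that are cut into single messengers, mostly at the transfer RNAs that lie between the genes, and most messengers then receive a short poly(A) tail. Mt-atp8 and Mt-atp6 are an exception: no transfer RNA separates them, their reading frames overlap, and both are translated from 1 shared mRNA, with the Mt-atp8 frame at its 5' side and Mt-atp6 behind it. Mt-nd4l, a complex I gene, is placed in the same way ahead of Mt-nd4. The products of the 6 genes are membrane subunits of the respiratory chain, and each is assembled with partners that are encoded in the nucleus. Cytochrome b carries electrons through complex III, Mt-co1 and Mt-co2 hold the metal centres of cytochrome c oxidase, and Mt-co3 is a core subunit beside them. Mt-atp6 forms part of the proton path of ATP synthase, and Mt-atp8 is a small membrane subunit of the same enzyme.

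Total counts ran from 6559971 to 11859690 per library. The 9 skeletal muscle markers examined summed to 106903 to 202955 CPM and none was at 0 in any library. On the second principal component of all genes, room temperature controls 1 and 2 scored -62.3 and -79.8, against -9.75 to 17.2 in the other 29. On the first component 7 libraries from all 4 groups had low scores, -68.3 to -39.0, with the next library at -25.1. These were control 1 and knockouts 9 and 12 at room temperature, and controls 17 and 23 and knockouts 25 and 28 in the cold. Results were also computed without each of these sets, which share control 1 at room temperature. The labels name no batch, litter or cage. Rats are numbered group after group, and a batch that followed this order cannot be told apart from the group.

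The 6 transcripts differed widely in level. Over the 31 libraries the mean level of Mt-atp6 was 47084 ± 9158 CPM (SD), followed by Mt-co2 at 16076 ± 3726, Mt-cyb at 10478 ± 2973, Mt-co3 at 10368 ± 2773, Mt-co1 at 4749.7 ± 889 and Mt-atp8 at 1402 ± 666 CPM. In all 31 libraries Mt-atp6 exceeded Mt-co2, Mt-co2 exceeded Mt-cyb, Mt-co3 exceeded Mt-co1 and Mt-co1 exceeded Mt-atp8. Mt-cyb and Mt-co3 were the only neighbours in that order whose rank was not fixed, with Mt-cyb higher in 22 of 31 libraries. Mt-atp6 and Mt-atp8, which share an mRNA, thus stood at opposite ends of the order. A 3' tag of that mRNA would fall in Mt-atp6, so the Mt-atp8 count is uncertain as a measure of it. Counts behind these levels ran from 4184 to 33173 reads for Mt-atp8 and from 257582 to 605869 reads for Mt-atp6 in a library, so the spread between libraries, and not counting error, limits the precision.

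**Figure D1:**
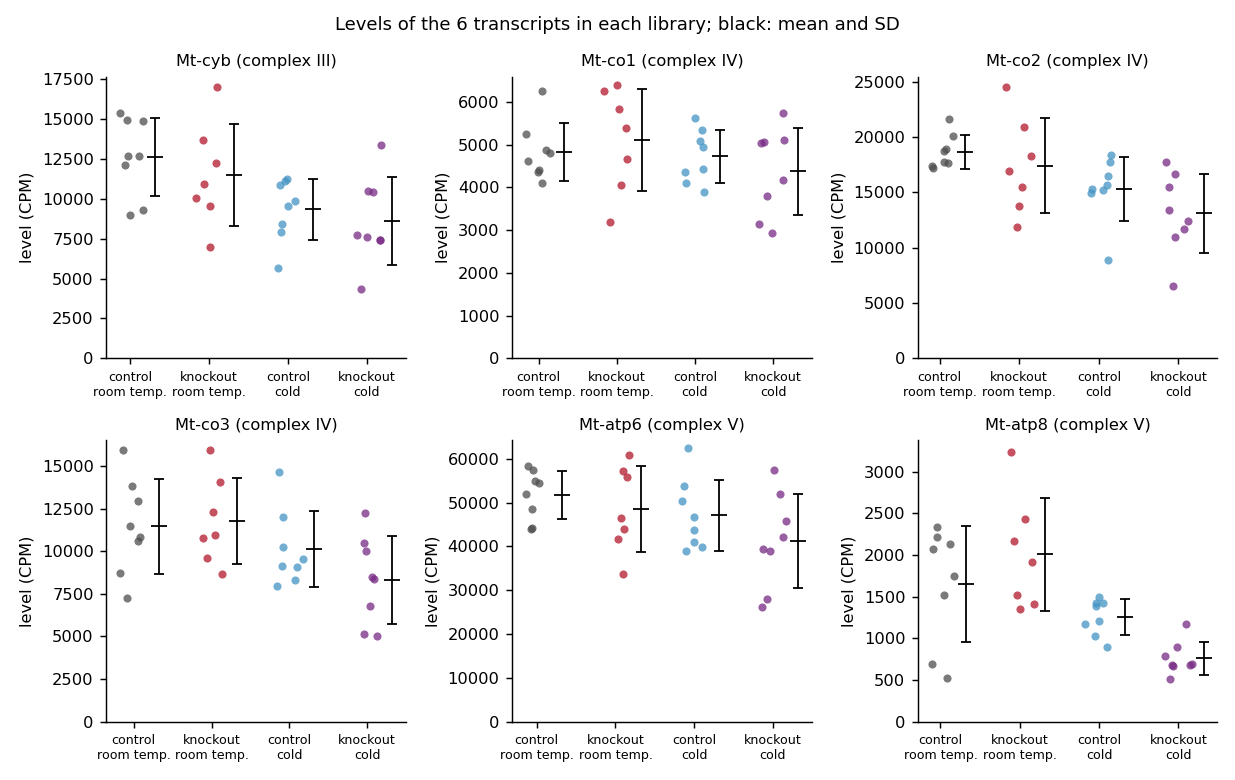
Level of each of the 6 transcripts (CPM, linear axes from 0) in the 31 libraries by group, with 1 point per rat and the group mean and SD in black. The 8 cold knockouts all lie below the 7 room temperature knockouts for Mt-atp8, while the groups overlap for the other 5 transcripts. The share of all genes with such a separation was not computed.

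As a share of all counts, the 6 transcripts together were lower in the cold in both genotypes. In controls the share ran from 8.66% to 11.1% at room temperature (median 9.85%) and from 7.04% to 9.67% in the cold (median 8.51%). The group means were 9.89 ± 0.778% and 8.48 ± 0.839% (SD, n = 8 and 8), a difference of -1.41 percentage points (exact permutation test, two-sided, p = 0.00404, adjusted p = 0.0152 over 15 tests of 3 measures). In knockouts it ran from 8.19% to 11.6% at room temperature (median 9.53%) and from 5.83% to 9.20% in the cold (median 8.23%). The means were 9.87 ± 1.14% and 7.73 ± 1.29% (n = 7 and 8), a difference of -2.14 points (exact permutation p = 0.00513, adjusted p = 0.0154). The groups overlapped in both genotypes, and in knockouts the difference did not pass without the 7 libraries of low first component score (-1.86 points, exact permutation p = 0.0411, adjusted p = 0.0928). In bulk muscle, fewer cells of a type and less RNA per cell cannot be told apart. The 9 markers of slow fibres, which are rich in mitochondria, had log2 changes above 0 in both genotypes. Their medians were 0.92 in controls and 0.78 in knockouts, and their part in the lower share was not tested. The median log2 changes of the nuclear genes of complexes III, IV and V were 0.25, 0.06 and -0.02 in cold controls and 0.03, 0.06 and 0.07 in cold knockouts.

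All 12 mitochondrially encoded genes listed, the 6 transcripts and 6 of complex I, took 12.5 ± 1.15% of counts in controls at room temperature and 10.3 ± 0.989% in the cold (exact permutation adjusted p = 0.0128). In knockouts they took 12.4 ± 1.59% and 9.43 ± 1.59% (exact permutation adjusted p = 0.0132, and 0.0893 without the same 7 libraries). The share of the 6 transcripts did not pass between genotypes at room temperature (difference -0.02 points, exact permutation adjusted p = 0.967) or in the cold (-0.749 points, exact permutation adjusted p = 0.317). The cold difference of knockouts minus that of controls was -0.726 points and did not pass (exact permutation of genotype within temperature, adjusted p = 0.454).

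**Figure D2:**
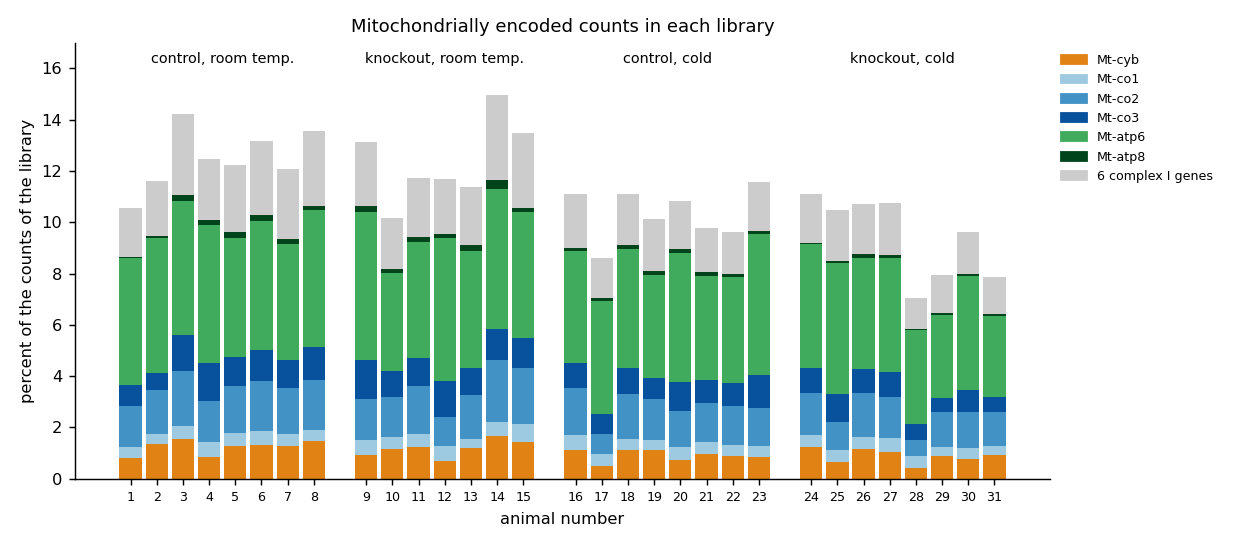
Percent of each library's counts on the 6 transcripts (coloured) and on the 6 listed complex I genes of mitochondrial DNA (grey), 1 bar per rat, labelled by animal number. Mt-atp6 takes the largest part of each bar, and the coloured parts reach 8.19% to 11.6% in the 15 room temperature libraries and 5.83% to 9.67% in the 16 cold ones.

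Gene by gene, the test over all 10082 genes called 0 of the 6 in cold controls, where it called 0.853% of all genes (0.595% higher and 0.258% lower), and 1 of the 6 was below an unadjusted p of 0.05 there, as were 14.2% of all genes. DESeq2 called 0 of the 6 in cold controls too. In cold knockouts edgeR called 1 of the 6, Mt-atp8, against 1.38% of all genes (1.02% higher and 0.357% lower), and 4 of the 6 were below an unadjusted p of 0.05, as were 14.3% of all genes. With the cold change averaged over genotypes 1 of the 6 was called, again Mt-atp8, against 5.65% of all genes (3.67% higher and 1.98% lower). All 6 log2 changes were below 0 in both genotypes, with a median of -0.23 in controls, where the median of all genes was -0.03, and of -0.41 in knockouts, where it was 0.02. These are changes relative to the scaling, and the 6 signs are not independent since the transcripts come from the same molecules of DNA.

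**Figure D3:**
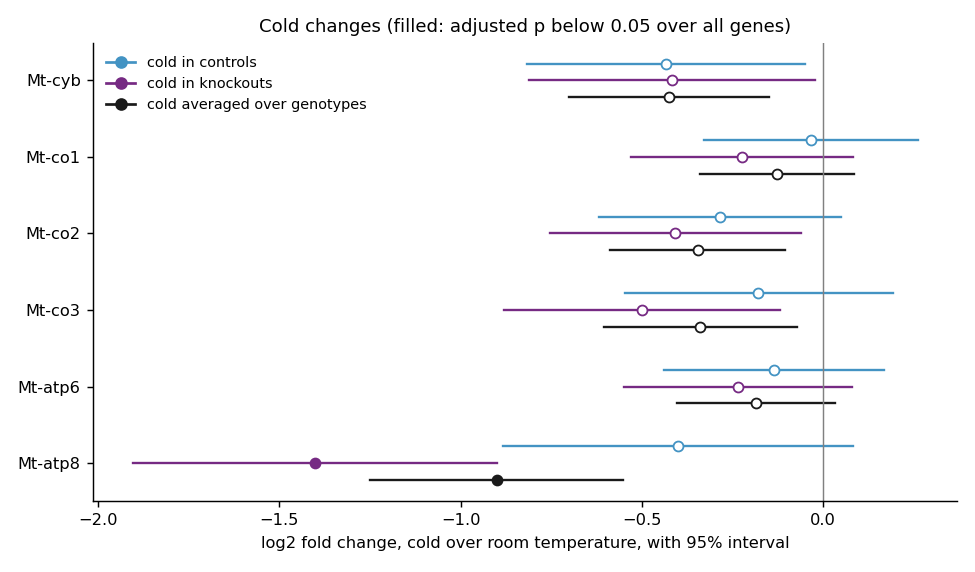
Log2 fold change of cold over room temperature for each transcript in controls, in knockouts and averaged over genotypes, with 95% intervals from the fit; filled points passed an adjusted p of 0.05 over all genes. Mt-atp8 is the only transcript with filled points, at -1.40 in knockouts and -0.90 averaged over genotypes.

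Mt-cyb, the cytochrome b of complex III, ran from 8995 to 15383 CPM in controls at room temperature (median 12667) and from 5651 to 11236 CPM in controls in the cold (median 9699). In knockouts it ran from 6982 to 16986 CPM at room temperature (median 10953) and from 4324 to 13386 CPM in the cold (median 7681). In controls 6 of the 8 room temperature libraries lay above all 8 cold ones, and in knockouts 2 of 7 did. The log2 change in the cold was -0.43 ± 0.19 in controls (SE, edgeR adjusted p = 0.282) and -0.42 ± 0.19 in knockouts (adjusted p = 0.307). Averaged over genotypes it was -0.43 ± 0.13, with an adjusted p of 0.0559, which did not pass. That average passed with DESeq2 (adjusted p = 0.0343) and without the 7 libraries of low first component score (edgeR adjusted p = 0.0394). It also passed with first component scores as a covariate (0.0111), which were computed without the mitochondrially encoded genes. In 6 of 31 omissions of a single library it passed too (adjusted p from 0.0231 to 0.111 over all 31). These were the omissions of controls 1 and 4 and knockout 12 at room temperature and of knockouts 24, 26 and 27 in the cold.

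Of the complex IV transcripts, Mt-co1 had the smallest changes. Its level was 4833 ± 674 CPM in controls at room temperature (4093 to 6249) and 4724 ± 619 CPM in the cold (3889 to 5623). In knockouts it was 5111 ± 1196 CPM at room temperature (3191 to 6404) and 4376 ± 1014 CPM in the cold (2942 to 5734). In controls 1 of 8 room temperature libraries lay above all cold ones and 1 of 8 cold libraries below all room temperature ones, and in knockouts 3 of 7 and 2 of 8 did. Its log2 change in the cold was -0.03 ± 0.14 in controls, with a 95% interval from -0.328 to 0.262, and -0.22 ± 0.15 in knockouts, from -0.529 to 0.081.

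Mt-co2 ran from 17195 to 21610 CPM in controls at room temperature (median 18226) and from 8856 to 18374 CPM in the cold (median 15499). In knockouts it ran from 11889 to 24500 CPM at room temperature (median 16956) and from 6535 to 17763 CPM in the cold (median 12909). In controls 6 of 8 cold libraries lay below all room temperature ones, and in knockouts 3 of 8 did. The spread was uneven, since the coefficient of variation was 8.27% in room temperature controls and 24.7%, 18.9% and 27.4% in room temperature knockouts, cold controls and cold knockouts. The log2 change was -0.28 ± 0.16 in controls (edgeR adjusted p = 0.421), -0.41 ± 0.17 in knockouts (adjusted p = 0.237) and -0.35 ± 0.12 on average (adjusted p = 0.077). The average passed with first component scores as a covariate (-0.32, adjusted p = 0.0337) and without knockout 12 at room temperature or knockout 24 in the cold (lowest adjusted p over the single omissions 0.0453).

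Mt-co3 ran from 7272 to 15949 CPM in controls at room temperature and from 7978 to 14654 CPM in the cold, with medians of 11152 and 9343. In knockouts it ran from 8667 to 15919 CPM at room temperature and from 5052 to 12265 CPM in the cold, with medians of 10952 and 8414. In controls the cold range lay inside that of room temperature, and in knockouts 5 of 8 cold libraries lay below all 7 at room temperature. The log2 change was -0.18 ± 0.18 in controls (edgeR adjusted p = 0.663) and -0.50 ± 0.19 in knockouts (adjusted p = 0.179), and their difference did not pass (-0.32 ± 0.26, adjusted p = 0.861). The average over genotypes, -0.34 ± 0.13 (adjusted p = 0.122), passed with library totals in place of TMM (adjusted p = 0.0426), with first component scores as a covariate (0.0387) and without controls 1 and 2 at room temperature (0.0452).

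Mt-atp6, the most abundant of the 6, ran from 44012 to 58269 CPM in controls at room temperature (median 53172) and from 38877 to 62342 CPM in the cold (median 45169). In knockouts it ran from 33595 to 60919 CPM at room temperature (median 46523) and from 26197 to 57491 CPM in the cold (median 40799.9). The groups overlapped in both genotypes. The log2 change was -0.14 ± 0.15 in controls (95% interval -0.44 to 0.167) and -0.23 ± 0.15 in knockouts (-0.549 to 0.0797). A decrease of the size measured for Mt-atp8 in knockouts (-1.40) lies outside both intervals. The change measured for Mt-atp8 in controls (-0.40) lies inside the interval of controls.

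Mt-atp8, as counted, differed in knockouts from its partner Mt-atp6 in its change in the cold. In the 7 room temperature knockouts it stood at 2439, 1353, 2174, 1521, 1916, 3240 and 1418 CPM, and in the 8 cold knockouts at 687, 677, 1174, 898, 514, 681, 785 and 665 CPM. The highest cold knockout (animal 26) was below the lowest at room temperature (animal 10), so these groups did not overlap. The share of all genes for which these groups do not overlap was not computed. In the 8 controls at room temperature it stood at 527, 698, 2343, 2069, 2135, 2216, 1754 and 1524 CPM, and in the 8 cold controls at 901, 1034, 1425, 1393, 1431, 1497, 1168 and 1206 CPM. Controls 1 and 2 at room temperature gave 527 and 698 CPM, below every cold control, while the other 6 were above every cold control. Mt-atp8 fell in cold knockouts by 1.40 ± 0.25 on the log2 scale (edgeR adjusted p = 0.00195), the cold mean being 0.379 of that at room temperature. The call held under every other setting (-1.42 to -1.31) and in each of the 31 omissions of a single library (log2 change -1.54 to -1.27, adjusted p from 2.72e-04 to 0.00939). In cold controls the log2 change was -0.40 ± 0.24 (adjusted p = 0.434), and without controls 1 and 2 at room temperature it was -0.67 (adjusted p = 0.086).

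The 2 complex V transcripts were set against each other within each library, which needs no scaling between libraries. At room temperature knockouts had 2.66 to 5.81 Mt-atp8 counts per 100 Mt-atp6 counts (median 4.03, mean 4.16 ± 1.08), and in the cold 1.18 to 2.98 (median 1.91, mean 1.95 ± 0.658). The ranges overlapped slightly, and on the log2 scale the ratio fell by 1.12 (exact permutation test, two-sided, p = 7.77e-04, adjusted p = 0.0117). Controls had 0.963 to 4.85 at room temperature (median 3.76, mean 3.30 ± 1.51) and 1.93 to 3.66 in the cold (median 2.80, mean 2.74 ± 0.684), a log2 difference of -0.11 (exact permutation adjusted p = 0.882). That value rested on controls 1 and 2 at room temperature, whose log2 ratios were -6.70 and -6.36 against -5.16 to -4.37 in the other 6. Without these 2 libraries the log2 ratio fell in cold controls too, with a difference of -0.574 (exact permutation p = 0.0123, adjusted p = 0.0308).

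The cold change of the log2 ratio in knockouts minus that in controls was -1.02 and did not pass after adjustment (exact permutation p = 0.0202, adjusted p = 0.0506). It was -0.547 without controls 1 and 2 at room temperature (exact permutation adjusted p = 0.151), and omitting 1 library at a time it passed in 12 of 31 cases (lowest adjusted p = 0.0269, highest 0.0906). In the cold, the log2 ratio of knockouts minus that of controls was -0.526 (exact permutation p = 0.0317, adjusted p = 0.0679). This passed without control 23, knockout 26 or knockout 31, all cold animals (lowest adjusted p = 0.0276). Reads are assigned to genes and not to RNA molecules, the rule used for overlapping genes is not given in the sources used here, and a 3' tag of the shared mRNA would fall in Mt-atp6. The Mt-atp8 count is therefore uncertain as a measure of that mRNA.

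**Figure D4:**
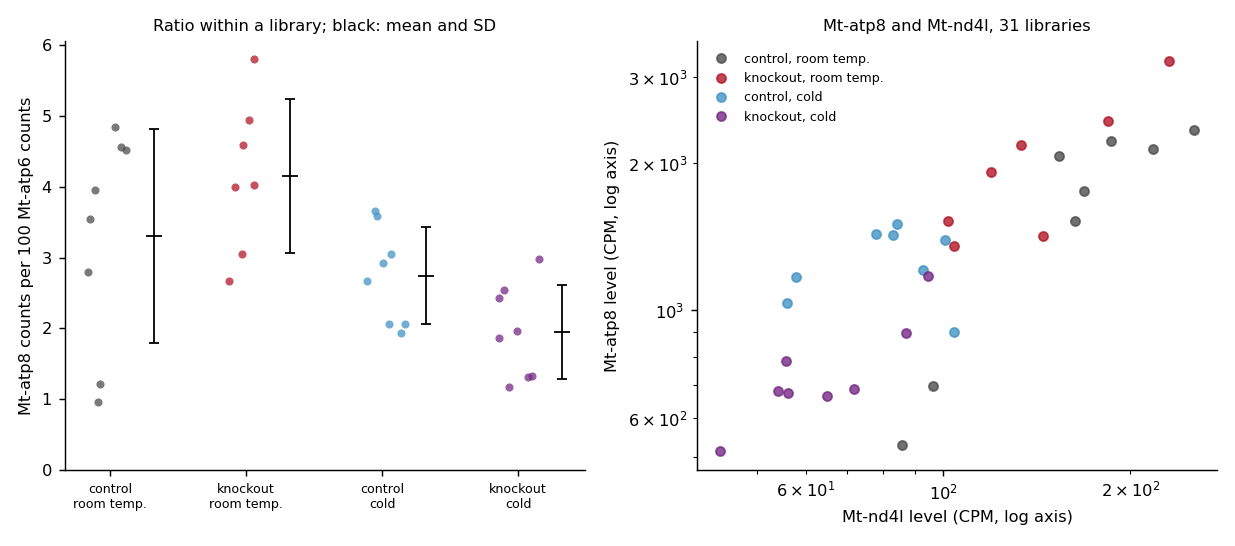
Left, Mt-atp8 counts per 100 Mt-atp6 counts in each library by group (linear axis from 0, mean and SD in black); right, the level of Mt-atp8 against that of Mt-nd4l in the 31 libraries (CPM, both axes logarithmic). Controls 1 and 2 at room temperature are the 2 lowest points of their group on the left, the lower at 0.963, and the 2 lowest of their group on both axes on the right.

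Between genotypes, 0 of the 6 were called at room temperature, where edgeR called 0% of all genes and DESeq2 also called 0 of the 6, and 0 of the 6 were below an unadjusted p of 0.05, against 7.06% of all genes. The 6 log2 differences ran from -0.14 ± 0.19 for Mt-cyb to 0.28 ± 0.24 for Mt-atp8. In the cold edgeR and DESeq2 again called 0 of the 6 between genotypes, where edgeR called 0.00992% of all genes, and 1 of the 6 was below an unadjusted p of 0.05, as were 6.28% of all genes. The member was Mt-atp8, at -0.73 ± 0.24 (adjusted p = 0.576), with 7 of 8 cold knockouts, all but knockout 26, below the 8 cold controls. The other 5 differences ran from -0.28 for Mt-co3 to -0.11 for Mt-co1. For the difference between the cold changes of the 2 genotypes edgeR called 0 of the 6 and 0% of all genes, DESeq2 called 0 of the 6, and 1 of the 6 was below an unadjusted p of 0.05, as were 7.31% of all genes. The member was again Mt-atp8, at -1.002 ± 0.34 (adjusted p = 0.538, and 0.235 to 0.794 over the omissions of 1 library), and it stood at -0.72 without controls 1 and 2 at room temperature (adjusted p = 0.679).

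Within the mitochondrially encoded counts of a library, 1 of 30 tests of the members' shares passed, that of Mt-atp8 in cold knockouts. Its share was 1.65 ± 0.362% at room temperature and 0.84 ± 0.226% in the cold (exact permutation p = 3.11e-04, adjusted p = 0.00932 over 30 tests). With all libraries the difference was -0.811 points. Without the 7 libraries of low first component score it was -0.793 points and did not pass (exact permutation p = 0.00433, adjusted p = 0.0884). Too few libraries were left in these groups for this test to pass after adjustment over 30 tests, so it cannot decide. Mt-atp6 took 40.7 ± 3.94% and 43.9 ± 4.22% in controls and 40.2 ± 4.24% and 44.1 ± 4.4% in knockouts, at room temperature and in the cold (exact permutation adjusted p = 0.535 for both genotypes). Mt-co1 took 3.81 ± 0.515% and 4.44 ± 0.579% in controls (exact permutation p = 0.0368, adjusted p = 0.276). The shares of Mt-cyb, Mt-co2 and Mt-co3 had differences between -1.43 and 0.839 percentage points in the 5 comparisons, with an adjusted exact permutation p of 0.535 or above. These shares show unequal change among the genes and do not show which gene stayed level.

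Mt-nd4l lies ahead of Mt-nd4 as Mt-atp8 lies ahead of Mt-atp6. Unlike Mt-atp8, which was called in cold knockouts only, Mt-nd4l was called lower in the cold in both genotypes. It went from 165 ± 56.2 to 82.0 ± 17.9 CPM in cold controls (log2 change -1.01 ± 0.21, edgeR adjusted p = 0.0127) and from 145 ± 47.0 to 65.99 ± 17.4 CPM in cold knockouts (-1.14 ± 0.21, adjusted p = 0.00338). Its level in controls 1 and 2 at room temperature, 85.7 and 96.2 CPM, was likewise below the other 6 (153 to 253 CPM). Mt-nd4 is not analysed here, so the ratio within that mRNA was not tested. Of the 6 listed complex I transcripts of mitochondrial DNA, 2 fell in each genotype, Mt-nd4l and Mt-nd5, and 5 fell on average over genotypes, all but Mt-nd6. Over all genes edgeR called 0.258% lower in cold controls, 0.357% in cold knockouts and 1.98% on average. The median log2 changes of the 6 complex I transcripts were -0.58 in cold controls and -0.54 in cold knockouts. For the 6 transcripts of complexes III, IV and V they were -0.23 and -0.41, and the difference was not tested.

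The 6 transcripts did not vary alike among animals. Among 6996 other tested genes with a mean of at least 5 CPM, the closest in log2 level to Mt-cyb over the 31 libraries were Mt-co2 (Pearson r = 0.929), Cop1 (0.884) and Rragd (0.872). Those closest to Mt-co2 were Mt-nd3 (0.933), Mt-cyb (0.929) and Ppa2 (0.897), the mitochondrial pyrophosphatase. Those closest to Mt-atp6 were the muscle enolase Eno3 (0.881), the complex I subunit Ndufs7 (0.870) and Mt-nd1 (0.857). For Mt-co3 they were Mt-nd1 (0.849), Mt-atp6 (0.825) and Agtpbp1 (0.785), and for Mt-co1 they were Uqcc2, an assembly factor of complex III (0.762), Naa38 (0.719) and Mt-co3 (0.717). For Mt-atp8 they were Vps36 (0.860), Mt-nd4l (0.830) and Marcks (0.827). These values are a description of 31 libraries that also share group differences and scaling.

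After subtraction of the group means, Mt-cyb and Mt-co2 still ran together (r = 0.907), as did Mt-atp8 and Mt-nd4l (0.799), while Mt-atp8 and Mt-atp6 had r = 0.0262. The genes closest to Mt-atp8 were then Klhl24 (0.878), Sept7 (0.876) and Pltp (0.835), those closest to Mt-cyb were Mt-co2, Trim35 (0.899) and Tp53inp2 (0.886), and those closest to Mt-co2 were Mt-nd3 (0.922), Ppp3r1 (0.920) and Mt-cyb. Those closest to Mt-atp6 were Vdac2 (0.883), Ndufa7 (0.881) and Mt-nd1 (0.871). For Mt-co3 they were Agtpbp1 (0.861), LOC691427 (0.845) and Mrps36 (0.842), and for Mt-co1 they were Mt-nd5 (0.761), Uqcc2 (0.751) and Ankrd46 (0.735). The lowest Mt-cyb level of each group lay in a library of low first component score, namely control 1 and knockout 12 at room temperature and control 17 and knockout 28 in the cold. For Mt-co2 this held in 3 of 4 groups, the exception being room temperature controls, where control 4 was lowest. A covariate of first component scores computed without the mitochondrially encoded genes was also used. With it the cold changes averaged over genotypes were -0.37 for Mt-cyb and -0.32 for Mt-co2.

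The nuclear genes of the same complexes were examined next. Of nuclear complex III genes 9 of 9 on the list were tested, of complex IV 13 of 16, and of complex V 16 of 18. In either direction edgeR called none of them in cold controls or cold knockouts, where it called 0.853% and 1.38% of all genes. The medians of these lists, given above, stood beside medians of -0.23 in controls and -0.41 in knockouts for the 6 transcripts of mitochondrial DNA. In controls the smallest p-values belonged to Cyc1, the cytochrome c1 of complex III (0.42 ± 0.18), and Uqcrq (0.42 ± 0.18), to Cox6a1 (0.32 ± 0.13) and Cox5a (0.58 ± 0.33) of complex IV, and to Atp5mg (0.37 ± 0.17) and Atp5mc1 (0.40 ± 0.23) of complex V. In knockouts they belonged to Uqcrq (0.49 ± 0.19) and Uqcr10 (0.14 ± 0.20), to Cox4i2 (-0.62 ± 0.24) and Cox6a1 (0.33 ± 0.13), and to Atp5mg (0.32 ± 0.17) and Atp5f1d (-0.17 ± 0.12). None of these differences from the 6 transcripts was tested as such. Averaged over genotypes, 1 of 9 complex III genes rose, Uqcrq (0.46 ± 0.13, edgeR adjusted p = 0.0346), a small membrane subunit. Of 13 complex IV genes 1 rose, Cox6a1 (0.32 ± 0.09, edgeR adjusted p = 0.03). Over all genes 5.65% were called on that average, 3.67% higher and 1.98% lower. None of 16 complex V genes was called there, the first by p being Atp5mg (0.35 ± 0.12, adjusted p = 0.0828) and Atp5mf (0.27 ± 0.15).

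Factors that assemble these complexes or handle mitochondrial RNA were examined as well. Of 33 assembly factors 29 were tested. None was called by edgeR in cold controls, in cold knockouts or on average, where it called 0.853%, 1.38% and 5.65% of all genes. The medians of the 29 were -0.004, -0.004 and -0.001. The smallest p-values belonged to Bcs1l (-0.42 ± 0.17), which inserts the iron-sulfur protein into complex III, and Uqcc1 (0.34 ± 0.14) in controls, and to Lyrm7 (0.28 ± 0.15) and Uqcc1 (0.21 ± 0.14) in knockouts. On average they belonged to Uqcc1 (0.28 ± 0.10) and Cox16 (-0.28 ± 0.11). Of 35 genes of mitochondrial DNA maintenance, transcription and RNA handling 32 were tested. In cold controls 1 of the 32 fell, Fastkd3, a mitochondrial RNA-binding protein, from 18.5 ± 4.94 to 12.7 ± 1.12 CPM (-0.54 ± 0.13, edgeR adjusted p = 0.0352), and in knockouts it stood at 15.3 and 15.4 CPM. Over all genes 0.258% were called lower in cold controls. In cold knockouts none of the 32 was called, the first by p being the helicase Twnk (-0.46 ± 0.17) and the polymerase Polg (-0.52 ± 0.20). On average over genotypes none of the 32 was called, the first by p being Fastkd3 (-0.26 ± 0.09, adjusted p = 0.0894). Lrpprc, which stabilises mitochondrial messengers, was next at 0.31 ± 0.11 (adjusted p = 0.0922).

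**Figure D5:**
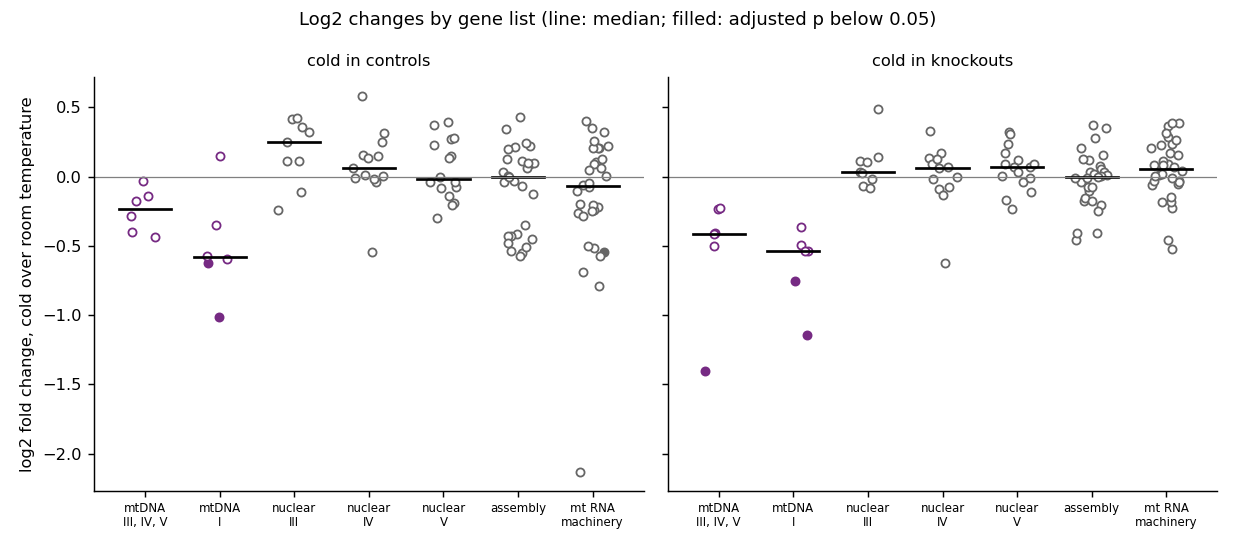
Log2 changes in the cold in controls (left) and knockouts (right) for the 6 transcripts, the 6 listed complex I genes of mitochondrial DNA, and the nuclear gene lists; each point is a gene, lines are medians and filled points passed an adjusted p of 0.05. The median of the 6 transcripts lies at -0.23 and -0.41, and that of the 6 complex I genes at -0.58 and -0.54. Those of the nuclear lists lie between -0.07 and 0.25.

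Markers of fibre type and of other cells were compared in the same groups. Over all genes edgeR called 0.595% higher and 0.258% lower in cold controls, and 1.02% higher and 0.357% lower in cold knockouts. Of 9 slow fibre markers 5 rose in cold controls and 4 in cold knockouts, none was at 0 in any library, and their summed level ran from 6124 to 16597 and 8560 to 14461 CPM in controls and knockouts at room temperature and from 18378 to 24815 and 13262 to 30507 CPM in the cold. Of 7 macrophage and neutrophil markers 2 rose in cold controls and 1 in cold knockouts, with sums of 14.6 to 59.9 and 52.6 to 85.2 CPM at room temperature and 56.5 to 100.5 and 72.8 to 144 CPM in the cold. Of 8 white adipocyte markers 0 were called in cold controls and 1 rose in cold knockouts, with sums of 463 to 1160 and 923 to 1206 CPM at room temperature and 1012 to 1343 and 1161 to 2194 CPM in the cold. Of 3 tested erythrocyte markers 0 were called in cold controls and 1 rose in cold knockouts, the sums of the 4 listed ones being 183 to 452 and 177 to 740.5 CPM at room temperature and 314 to 693 and 338 to 1390.2 CPM in the cold. In room temperature controls 2 of the 8 adipocyte markers and 2 of the 4 erythrocyte markers were at 0 in at least 1 library. Of 5 endothelial markers 1 fell in cold controls and 0 were called in cold knockouts, with sums of 76.96 to 225 CPM over the 4 groups. Fibroblast, nerve and smooth muscle markers (5, 4 and 3 genes) had 0 calls in either genotype. The part of these markers in the levels of the 6 transcripts was not tested.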

How the data were processed

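QuantSeq 3' libraries of 31 rats were analysed. The authors' deposited table of raw counts was used for all tests. The deposited signal table holds counts divided by 1 DESeq2 size factor per library (largest relative departure 5.1e-10) and gave the gene symbols. The genome build Rnor 6.0 and DESeq2 1.22.2 are named per the submitters' processing notes. Aligner, counter and strand handling: not given in the sources used here.

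Low genes were removed with filterByExpr (at least 10 counts, total of at least 15). Libraries were scaled by TMM and fitted with edgeR 4.0.16 in R 4.3.3 (quasi-likelihood, 1 mean per group, 27 residual degrees of freedom). P-values are two-sided and adjusted by Benjamini-Hochberg over 10082 genes within a contrast, at 0.05. Changes are log2 fold changes; SE is the change over the square root of F. Log2 levels use a prior count of 2. Shares and the Mt-atp8 to Mt-atp6 ratio were tested by exact permutation of libraries, adjusted over 15 and 30 tests. For the difference of cold effects genotype was permuted within temperature, which is exact only if genotype had no effect at either temperature. Both procedures were checked on simulated data. Of 105 pairs of libraries within groups none matched within sampling noise (lowest chi-square per degree of freedom 5.62). DESeq2 1.42.0, other scalings, no filter, a principal component covariate and omitted libraries were tried. The covariate was the first principal component of genes other than the mitochondrially encoded ones.

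All 6 members were named in every contrast. From each other list the called genes (up to 4) or the 2 with the smallest p were named, and for each member the 3 genes with the highest correlation. The members, lists and tests were chosen with earlier results of these data known; omission of the 7 libraries low on the first component was added after seeing the data. Counts include PCR copies, as no molecular identifiers are described.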

Additional observations from a re-analysis of the deposited data

Results flagged for a closer look

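Groups of 7 or 8 libraries were examined for a highest or lowest value standing far from the rest, over 60 sets of values, of which chance flags about 1 in 20. There were 3 such values. Mt-co2 in cold control 17 stood at 8856 CPM, against a median of 15499 CPM in its group, and this library was also the lowest of all 31 on the first principal component (-68.3). Mt-co1 in cold knockout 28 took 6.77% of the mitochondrially encoded counts, against a median of 4.29%. In that library the whole mitochondrially encoded share was 7.05% of counts, the lowest of the 31. Mt-co2 in control 4 at room temperature took 12.8% of the mitochondrially encoded counts, against a median of 14.9%.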

How the results depend on the processing

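No paired analysis was possible because every animal has its own number and the groups share none. The Mt-atp8 decrease in cold knockouts, the fall of its ratio to Mt-atp6 there and the lower share of the 6 transcripts in cold controls kept direction and call under all alternatives run, single omissions included. In cold knockouts the difference in the share of the 6 transcripts was -1.86 points, and that of the 12 listed genes -2.68 points, without the 7 libraries of low first component score, and neither passed. Without room temperature controls 1 and 2 the log2 ratio of Mt-atp8 to Mt-atp6 differed by -0.574 in cold controls and passed. Omitting 1 library at a time, this ratio ran from -0.331 to 0.00286 in cold controls, from -0.624 to -0.433 between genotypes in the cold and from -1.12 to -0.791 for the difference between cold changes. Depth did not limit these abundant transcripts. The spread between libraries did. With 1 library per rat, differences between animals and between library preparations cannot be told apart.

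The number of the 6 transcripts called on average over genotypes, 1, was 2 with library totals, DESeq2, without controls 1 and 2 and without the 7 libraries, 4 with first component scores as a covariate, and 1 to 3 in single omissions. Over all genes, cold controls had 86 calls, against 216 with DESeq2, 379 with the covariate (160 higher and 219 lower, against 60 and 26), 38 without controls 1 and 2, 53 without the 7 libraries and 36 to 154 in single omissions. Cold knockouts had 139 calls, against 328 with DESeq2, 53 with only the libraries compared, 680 with the covariate, 379 without controls 1 and 2 and 56 to 231 in single omissions. The average had 570 calls and 1274 with the covariate (675 higher and 599 lower, against 370 and 200). Between genotypes at room temperature there were 0, but 1 with library totals, 1 with DESeq2 and 0 to 1 in single omissions. In the cold there was 1, against 0 with library totals, 0 with only the libraries compared, 0 without the 7 libraries, 8 with DESeq2, 8 with the covariate, 4 without controls 1 and 2 and 0 to 3 in single omissions. For the difference between cold changes there were 0, but 1 with DESeq2 and 0 to 1 in single omissions. The cause of these shifts was not tested.

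Only values that had not passed changed sign. For the log2 difference between genotypes at room temperature, Mt-co3 turned to -0.0066 with the covariate, -0.10 without controls 1 and 2 and -0.17 without the 7 libraries, and ran from -0.047 to 0.11 in single omissions, and Mt-co1 turned to -0.032 without the 7. For the difference between cold changes, Mt-cyb turned to -0.10 with the covariate and -0.016 without the 7 and ran from -0.10 to 0.13, and Mt-atp6 turned to 0.036 without the 7. Mt-co1 in cold controls ran from -0.073 to 0.021.

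Shares of all counts between genotypes at room temperature ran from -0.563 to 0.237 points for the 12 genes and from -0.317 to 0.256 for the 6. Among shares of the mitochondrially encoded counts, without controls 1 and 2, Mt-co2 turned to -0.0884 and Mt-atp6 to -1.13 for the difference between cold changes, Mt-co3 to -0.350 in cold controls and Mt-atp6 to 1.38 between genotypes at room temperature. Without the 7, Mt-cyb turned to 0.686, Mt-co2 to 1.19 and Mt-co3 to -0.113 between genotypes at room temperature, Mt-co2 to 0.934 and Mt-co3 to -0.0786 in cold controls, and Mt-co2 to 0.168 between genotypes in the cold and -1.02 for the difference between cold changes. In single omissions Mt-cyb ran from -0.923 to 0.210 in cold knockouts and from -0.722 to 0.330 between genotypes at room temperature. Mt-co1 ran from -0.408 to 0.0243 for the difference between cold changes. Mt-co2 ran from -0.644 to 0.437 in cold controls, from -1.02 to 0.510 in cold knockouts, from -0.550 to 0.521 and from -0.937 to 0.608 between genotypes at room temperature and in the cold, and from -0.711 to 0.834 for the difference between cold changes. Mt-co3 ran from -0.0283 to 0.843 in cold controls. Mt-atp6 ran from -1.72 to 0.463 and from -0.854 to 1.31 between genotypes at room temperature and in the cold, and from -0.404 to 1.97 for the difference between cold changes. The fit with only the libraries compared gave no value for that difference or for the average.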
